A study of Mus musculus with 4 samples.

Results

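Lcn2, the gene for lipocalin 2 (also called neutrophil gelatinase-associated lipocalin, NGAL), was followed across 4 mouse kidney sections, as 1 of the 32285 genes counted. It was picked by its symbol and its single identifier, ENSMUSG00000026822. The sections were 10 µm slices of left kidneys that were snap-frozen and embedded in OCT, and they were profiled on the Visium array, which captures polyadenylated RNA on barcoded spots that each hold several cells. All mice were male WT C57BL/6J of 7-8 weeks. The Normal ctrl group gave sections Normal 1 and Normal 2. The Ischemic reperfusion injury group gave sections Ischemic 1 and Ischemic 2, taken 24 h after both renal pedicles had been clamped for 30 min. The 4 sections lay on the 4 capture areas of 1 slide. The study describes 2 mice per condition and 2 technical replicates of each, and the sources used here do not say which mouse gave which section. Every p-value below therefore measures only the spread between sections, which may be technical.

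Lipocalin 2 is a small secreted protein that binds siderophores, the iron carriers of bacteria. It was first found in the granules of neutrophils, and its rise in urine and blood is used as an early sign of acute kidney injury. Injured epithelium, above all the distal part of the nephron, is known as a source of it, which is why the data were read for 2 patterns: whether Lcn2 lay with tubule genes or with neutrophil genes.

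In the GENCODE annotation of GRCm38, Lcn2 is a protein-coding gene on the minus strand at chr2:32384633-32388252, with 6 transcripts, and no other annotated gene overlaps it. The nearest genes are 1110008P14Rik, 2695 bp beyond its 3′ end, and Ptges2, 7644 bp beyond its 5′ end. The 192 bases before the start of transcript Lcn2-201, which has 6 exons, are printed because genes of 2 signalling routes known to act on such sequences were measured alongside Lcn2. They lie at chr2:32387798-32387989 (GRCm38.p6, minus strand, sequence from RefSeq) and overlap an exon of 1 other Lcn2 transcript.
Lcn2 upstream: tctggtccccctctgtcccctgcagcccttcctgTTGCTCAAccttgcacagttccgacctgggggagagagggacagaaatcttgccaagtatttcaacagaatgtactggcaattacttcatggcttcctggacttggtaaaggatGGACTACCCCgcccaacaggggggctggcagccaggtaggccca
The capitals mark the matches to 2 of 3 motifs that were searched on both strands and chosen with the sequence in view. TTGCNNAA, the form bound by C/EBP factors, matched 151 to 158 bases before the start, and 7.84% of the same window of all 32851 promoters held such a match. The NF-kB form, GGG and TCC with 4 free bases between them, matched on the opposite strand 35 to 44 bases before the start, against 12.2% of all windows. TTCNNNGAA, the STAT form, had no match in these letters, and 5.56% of windows held it. The matches are descriptions of the sequence, and binding was not measured.

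Lcn2 was at a low level in the normal sections and rose steeply after ischemia. Its total was 219 counts in Normal 1 and 220 in Normal 2, against 94901 in Ischemic 1 and 94111 in Ischemic 2. As CPM, counts per 1000000 UMIs where a UMI marks 1 captured molecule, this was 4.92 and 7.95 for the normal pair of sections against 3056 and 3626 for the ischemic pair. The groups lay far apart, with means of 6.44 ± 2.15 CPM and 3341 ± 403 CPM (SD, n = 2 sections each) and a ratio of 519 between them. Over all pairs of an ischemic with a normal section the ratio ran from 384 to 737. With edgeR's quasi-likelihood test on the summed counts, the log2 fold change was 8.78 ± 0.27 (SE, adjusted p = 6.90e-08), the 22nd highest of 15305 genes tested. The background was high, since 60.6% of genes changed in this comparison, 31.0% rose and 29.7% fell, so the size of the change carries more than the call. The median of all genes was 0.04 on the same log2 scale. Depth ran from 25957128 to 44528078 UMIs per section, and mitochondrial genes took 3.36 to 5.21% of UMIs, more in the normal sections, and the part of this in the change of Lcn2 was not tested. A higher value in a spot can come from more cells of a kind or from more RNA per cell, and the counts cannot tell these apart.

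**Figure D1:**
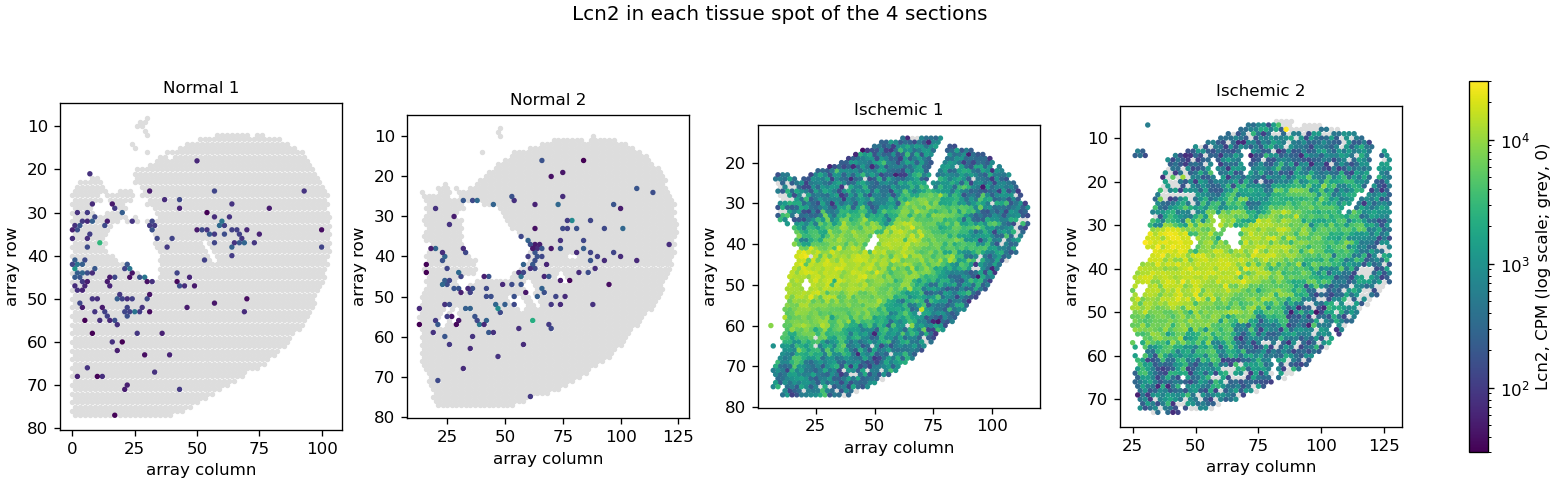
Lcn2 in every tissue spot of the 4 sections, by array column and row (positions without unit), coloured by CPM on a log scale with spots without a count in grey. Counts are scattered in Normal 1 and Normal 2, and a broad band of high values fills the inner part of Ischemic 1 and Ischemic 2.

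Nearly every spot of the ischemic kidneys held Lcn2. In the normal sections 154 of 2616 spots (5.89%, exact 95% interval 5.02 to 6.86%) and 150 of 2682 spots (5.59%, 4.75 to 6.53%) had at least 1 count. In the ischemic sections it was 2345 of 2401 spots (97.7%, 97.0 to 98.2%) and 2450 of 2613 spots (93.8%, 92.8 to 94.7%). These intervals cover counting error only. After each spot was thinned to 2000 UMIs, which left out 48 to 150 shallower spots per section, the shares were 1.09% and 1.58% before injury against 81.3% and 79.1% after it. The highest count in a spot was 7 and 10 in Normal 1 and Normal 2, and 311 and 401 in Ischemic 1 and Ischemic 2. The rise was thus spread over the tissue, yet it was uneven. The 10% of spots with the most Lcn2 held 38.6% of its counts in Ischemic 1 and 43.4% in Ischemic 2. The Spearman correlation of a spot with its neighbours was 0.82 and 0.84, against 0.27 and 0.17 in the normal sections, as a description over spots that share a library.

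To place Lcn2 in the kidney, spots were assigned to 5 zones by marker lists that did not include it. Lcn2 stepped up from the cortex inward. In the cortex, the outer layer of glomeruli and proximal tubules, the level was 733 CPM in Ischemic 1 and 622 CPM in Ischemic 2. In the outer stripe of the outer medulla, which holds the last part of the proximal tubule, it was 1848 and 1766 CPM. The 2 sections differed little here against the step between the zones. In the inner stripe, where thick ascending limbs are dense, Lcn2 reached 7829 and 8604 CPM. In the inner medulla, the zone of collecting ducts and thin limbs, it reached 9638 and 10838 CPM. Spots called inner medulla there also held the thick limb gene Umod at 5189 and 5182 CPM, against 1669 and 2489 CPM in Normal 1 and Normal 2. They made up 12.5% and 12.4% of spots, against 4.40% and 7.46% in the normal sections. Of them, 38.1% and 40.4% were boundary spots, whose 2 highest zone scores lay under 0.25 SD apart. How much inner stripe tissue they held was not tested. Spots called pelvis gave 5986 and 8223 CPM, with a wider gap between the sections than in any other zone. The pelvis call itself is weak after ischemia: the 6 genes of its urothelium list held 9004 and 14670 counts without injury, against 1094 and 1675 in Ischemic 1 and Ischemic 2.

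Spot by spot, cortex and inner stripe lay far apart, with the outer stripe between them. For Ischemic 1 and Ischemic 2, the median cortex spot held 505 and 405 CPM, the median outer stripe spot 1498 and 1244 CPM, and the median inner stripe spot 7221 and 7234 CPM. The middle range of cortex spots, from the lower to the upper quartile, was 262 to 1006 CPM in Ischemic 1, below the lower quartile of the inner stripe at 5249 CPM. The cortex supplied 9.81% and 6.31% of all Lcn2 counts from 40.9% and 36.7% of the UMIs. The inner stripe supplied 34.9% and 37.2% from 13.6% and 15.7%.

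In edgeR's test within the ischemic sections, with the section as a block, Lcn2 was higher in each inner zone than in the cortex. The log2 difference was 1.34 ± 0.10 (SE, adjusted p = 1.78e-11) for the outer stripe, where 20.8% of all genes were higher. It was 3.24 ± 0.10 (adjusted p = 3.59e-19) for the inner stripe, against 29.7% of genes, and 3.56 ± 0.11 (adjusted p = 1.14e-19) for the inner medulla, against 26.5%. For the pelvis it was 3.03 ± 0.10 (adjusted p = 6.28e-18), against 20.1% of genes. The inner stripe exceeded the outer stripe by 1.91 ± 0.10 (adjusted p = 2.10e-14), where 28.6% of genes did. Neighbours at the top of the order were not told apart at the threshold of 0.05. The inner medulla exceeded the inner stripe by 0.32 ± 0.10 (adjusted p = 0.155, where 0.827% of genes differed), and the inner stripe exceeded the pelvis by 0.21 ± 0.10 (adjusted p = 0.175, 11.4% of genes). Both depended on the processing: without boundary spots the first was 0.46 and passed (adjusted p = 0.00395), and with zones from single spots the second was 0.47 and passed (adjusted p = 0.000408). Zones of 1 section share a library, so these tests rest on 2 sections.

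**Figure D2:**
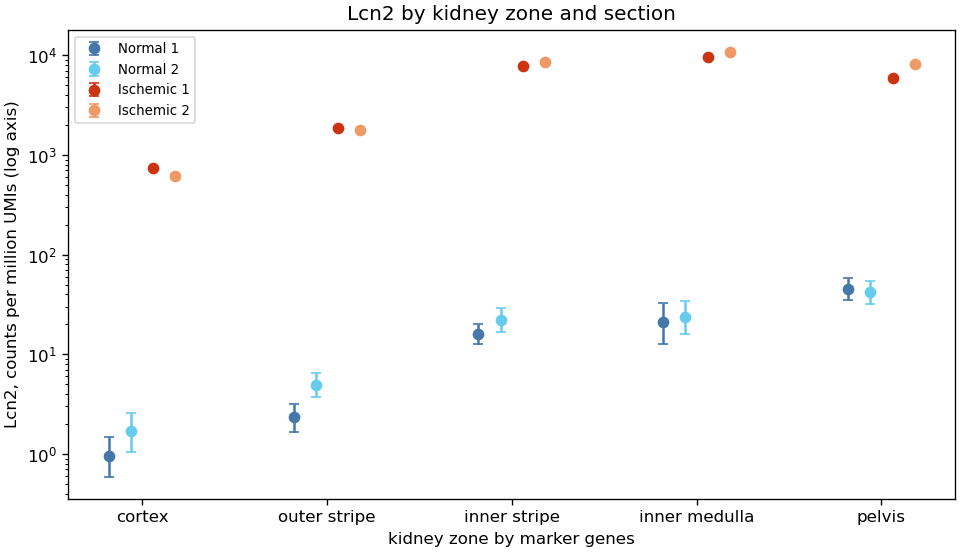
Lcn2 in CPM on a log axis for each zone and section, with exact 95% counting intervals as bars (too short to show for the ischemic sections). Ischemic 1 and Ischemic 2 lie between 622 and 10838 CPM, the normal sections between 0.956 and 45.7 CPM, and both climb from the cortex to the inner medulla. In the pelvis the normal sections are higher still, and the ischemic sections are lower than in the inner medulla.

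The faint signal of the normal kidneys was also higher inward, given here as values without a test. From cortex to pelvis, in the order of the zones above, Normal 1 had 0.956, 2.33, 16.1, 21.0 and 45.7 CPM. Normal 2 had 1.70, 4.98, 22.3, 23.8 and 42.1 CPM. Behind these stand between 19 and 82 counts per zone and section. The cortex value of Normal 1, from 20 counts, has an exact 95% lower bound of 0.584 CPM. The highest level of the normal sections was thus in the pelvis, the zone called by urothelial markers, and that of the ischemic sections in the inner medulla.

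Every zone showed the rise. The ratio of mean levels, ischemic over normal, was 510 for cortex, 494 for outer stripe, 428 for inner stripe, 457 for inner medulla and 162 for pelvis. By edgeR, in a fit of its own for each zone, the log2 fold change was 8.87 ± 0.20 in the cortex (SE, adjusted p = 1.91e-13) and 8.68 ± 0.21 in the outer stripe (adjusted p = 2.94e-19). Further in, it was 8.44 ± 0.36 for the inner stripe (adjusted p = 6.13e-05), 8.69 ± 0.27 for the inner medulla (adjusted p = 1.63e-07) and 7.26 ± 0.27 for the pelvis (adjusted p = 4.06e-10). Beside these calls, the share of all genes that rose was 25.9% for cortex, 34.7% for outer stripe, 16.8% for inner stripe, 12.9% for inner medulla and 11.6% for pelvis. The test of the difference itself, the interaction of zone and condition in edgeR, set each zone against the cortex. It gave -0.09 ± 0.28 for the outer stripe (log2, SE, adjusted p = 0.866), where 22.0% of genes were called. It gave -0.33 ± 0.29 for the inner stripe (adjusted p = 0.501, 17.2% of genes called) and -0.10 ± 0.30 for the inner medulla (adjusted p = 0.874, 14.0% called). For the pelvis it gave -1.59 ± 0.30 (adjusted p = 0.00184), where 9.41% of genes were called. That last difference did not pass without Normal 1 (-1.0, adjusted p = 0.114) or without Ischemic 1 (-1.27, adjusted p = 0.0851).

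The nephron segments with which Lcn2 lay were read from marker lists, as Spearman correlations across the spots of each section. Levels were pooled over a spot and its up to 6 neighbours, and the values are descriptions, since spots share a library, neighbours and a total of UMIs. The thin limb list, with Slc14a2, Bst1 and Slc4a11 among its genes, followed Lcn2 most closely, at 0.87 in Ischemic 1 and 0.85 in Ischemic 2. The list of the thick ascending limb, the salt-reabsorbing segment of the outer medulla, followed at 0.77 and 0.76. Within that list Umod, which encodes uromodulin, the most abundant urinary protein, stood at 0.90 and 0.85, and Slc12a1, the cotransporter NKCC2, at 0.68 and 0.64. The claudin genes of the list were weaker, with Cldn10 at 0.14 and 0.24 and Cldn16 at 0.05 and 0.14. Principal cells of the collecting duct gave 0.33 and 0.56, with Aqp2, the water channel under vasopressin control, at 0.59 and 0.69. Of the 7 principal cell genes 4 were above 0 in both ischemic sections, and Scnn1b, Scnn1g and Hsd11b2 were below 0 in Ischemic 1, at -0.06, -0.13 and -0.17. How many of all genes were above 0 in both sections was not counted, here or for the lists that follow. The list of the early proximal tubule ran opposite, at -0.80 and -0.77, and that of the distal convoluted tubule at -0.62 and -0.47. Late proximal markers of the S3 segment were near 0, at 0.07 and 0.04. In the normal sections the early proximal list again stood lowest, at -0.45 and -0.40. The thin limb list gave 0.43 and 0.38 there, and the urothelium list stood level with it, also at 0.43 and 0.38. Principal cells gave 0.42 and 0.32, macrophages and monocytes 0.40 and 0.37, and the thick ascending limb 0.17 and 0.23.

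Other cell types of these spots also had lists. Macrophages and monocytes gave 0.65 and 0.55 with Lcn2 in Ischemic 1 and Ischemic 2, endothelium 0.60 and 0.46, intercalated cells 0.12 and 0.38, urothelium 0.17 and 0.21, T cells 0.17 and 0.18 and podocytes -0.11 and -0.09. The lists themselves moved in both directions, beside 31.0% of all genes that rose and 29.7% that fell. All 5 genes of the thick ascending limb list fell (median log2 fold change -1.48, edgeR), with Slc12a1 going from 354 and 525 CPM to 55.0 and 56.5 CPM. All 5 genes of each proximal list fell (medians -2.61 for the early and -3.25 for the S3 part). In the thin limb list 3 of 4 genes rose, namely Slc14a2, Bst1 and Slc4a11, and 1 fell (list median 1.63). In the principal cell list 2 of 7 fell and 5 did not pass (-0.37), in the intercalated list 5 of 6 fell and 1 rose (-0.65), and in the distal convoluted list 2 of 4 fell and 2 did not pass (-0.85). Of the remaining lists, urothelium had 5 of 6 that fell (-3.17), macrophages and monocytes 5 of 9 that fell and Cd68 that rose (-0.41), T cells 5 of 5 that fell (-4.04), endothelium 3 of 5 that rose and 1 that fell (0.47), and podocytes 1 of 5 that rose and 2 that fell (0.09).

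**Figure D3:**
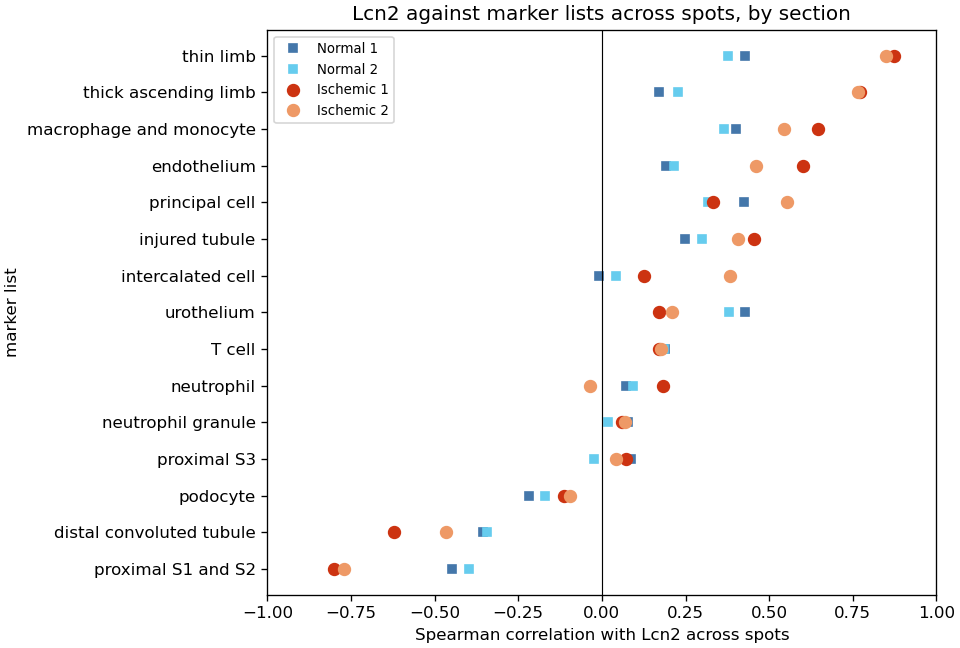
Spearman correlation of Lcn2 with each of 15 marker lists across the spots of a section (x axis, no unit), 1 point per section. In Ischemic 1 and Ischemic 2 the thin limb (0.87 and 0.85) and thick ascending limb (0.77 and 0.76) stand at the right, the early proximal tubule (-0.80 and -0.77) at the left and the neutrophil list (0.18 and -0.03) near 0.

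The zones themselves are built from segment genes, so the same values were taken inside each zone. In the cortex, Lcn2 still followed the thick ascending limb list (0.37 in Ischemic 1, 0.41 in Ischemic 2) and there also the distal convoluted tubule list (0.29 and 0.36), and it ran against the early proximal list (-0.27 and -0.23). In the outer stripe it followed the thick ascending limb list (0.45 and 0.64), with Umod at 0.77 and 0.85 and Slc12a1 at 0.32 and 0.44. In the inner stripe the thick ascending limb list gave -0.12 and 0.06, while the collecting duct lists stood at 0.27 and 0.42 for principal cells and 0.37 and 0.46 for intercalated cells. In the inner medulla these lists gave 0.55 and 0.64 for principal cells and 0.44 and 0.65 for intercalated cells. In the pelvis, over 107 and 131 spots, they gave 0.83 and 0.90 for principal cells and 0.85 and 0.74 for intercalated cells, with the thin limb list at 0.83 and 0.72. In the cortex both collecting duct lists were nearer 0, at 0.01 and 0.02 for principal cells and -0.13 and 0.03 for intercalated cells. The thin limb list, closest over all spots, gave 0.05 and 0.07 in the inner stripe and 0.33 and 0.22 in the inner medulla. It gave 0.34 and 0.24 in the cortex and 0.62 and 0.58 in the outer stripe. The lists that Lcn2 followed thus differed from zone to zone.

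Whether Lcn2 lay with neutrophils was asked with a list of 11 genes. These rose after ischemia. S100a8, a subunit of the neutrophil protein calprotectin, went from 0.337 and 0.579 CPM to 76.7 and 76.8 CPM (log2 fold change 7.17 ± 0.16 SE, edgeR adjusted p = 2.20e-08). Its partner S100a9 had 0.629 and 0.832 CPM against 83.7 and 84.6 CPM. Of the list, 9 genes passed the filter on low counts and all 9 rose, beside 31.0% of all genes that rose. Their median log2 fold change was 6.59. It was 3.76 with the 2 genes at 0 in the normal sections set to the bound that a count of 0 allows. Ly6g (0, 0, 4 and 4 counts in Normal 1, Normal 2, Ischemic 1 and Ischemic 2) and Cd177 (1, 0, 6 and 4 counts) were too low to test. Of 6 genes of neutrophil granules, Ngp, Camp, Ltf, Elane and Mpo held at most 6 counts in an ischemic section and were not tested. Prtn3, with 10, 2, 21 and 13 counts in the order above, was the 1 tested and rose (1.54, adjusted p = 0.0335 by edgeR). The correlation of these granule genes with Lcn2 was 0.06 and 0.07.

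Across all spots the neutrophil list did not follow Lcn2 closely in either ischemic section, at 0.18 in Ischemic 1 and -0.03 in Ischemic 2. Of its 11 genes 7 were above 0 in both ischemic sections and 0 were below 0 in both. Correlations above 0 were common among all genes, whose share above 0 in both sections was not counted. In the normal sections the list gave 0.07 and 0.09. The order of the zones differed between the list and Lcn2. In Ischemic 1 the neutrophil list had 366 CPM in the pelvis, 329 in the outer stripe, 238 in the inner medulla, 117 in the inner stripe and 71.1 in the cortex. In Ischemic 2 it had 351 CPM for outer stripe, 149 for pelvis, 133 for inner stripe, 129 for inner medulla and 84.5 for cortex. The pelvis of Ischemic 1 and, less so, its inner medulla were thus high in both, while the outer stripe was high in neutrophil counts and the inner stripe in Lcn2 in both sections. For each count of the neutrophil list, the outer stripe held 5.62 and 5.03 Lcn2 counts and the inner stripe 67.1 and 64.8. Inside the outer stripe, however, the list and Lcn2 went together, at 0.53 and 0.51 across 618 and 663 spots, as did the injured tubule list (0.57 and 0.63) and the list of macrophages and monocytes (0.54 and 0.62). In the inner medulla the neutrophil list and Lcn2 ran opposite, at -0.46 and -0.55. So did the injured tubule list there (-0.50 and -0.35) and the list of macrophages and monocytes (-0.22 and -0.24). In the pelvis these lists gave -0.68 and -0.65 for neutrophils, -0.67 and -0.62 for injured tubules and -0.56 and -0.55 for macrophages and monocytes. The level of each of these lists moves with the others from spot to spot, and their separate part in Lcn2 was not tested.

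Spots without a neutrophil count were read next, as a description. In Ischemic 1, 111 spots had no count of the 11 genes in the spot or any neighbour. Their Lcn2 level was 3961 CPM, against 3027 CPM in the other 2290 spots and 2834 CPM in the 10% of spots richest in neutrophil counts. In Ischemic 2, 245 such spots gave 6719 CPM, against 3412 CPM in the other 2368 spots and 2758 CPM in the richest 10%. Lcn2 was therefore present without neutrophil counts, and higher there, in both ischemic sections. In the normal sections, where most spots had no neutrophil count nearby, the order was the other way, at 4.51 CPM in 2158 such spots of Normal 1 against 6.95 CPM in 458 others, and 7.08 CPM in 2250 of Normal 2 against 11.6 CPM in 432. Of the ischemic spots without neutrophil counts, 95.5% in Ischemic 1 and 86.1% in Ischemic 2 held Lcn2. Inside single zones the order was mixed. In the outer stripe, spots that had no neutrophil count of their own held 0.87 and 0.76 times the level of the others. The same ratio was 0.91 and 1.04 in the cortex and 1.00 and 1.11 in the inner stripe. It was 1.27 and 1.47 in the inner medulla and 2.13 and 2.07 in the pelvis. The part of the zones in the ratio over all spots was not tested.

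**Figure D4:**
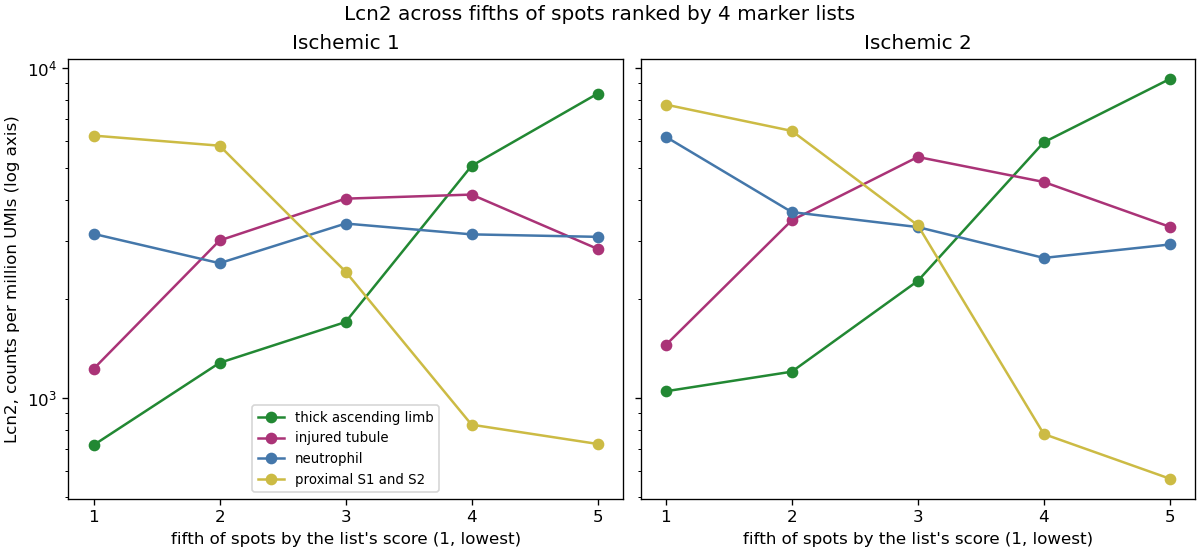
Lcn2 in CPM on a log axis across 5 equal groups of the spots ranked by the score of a marker list (x axis, 1 for the lowest), for Ischemic 1 and Ischemic 2, 1 line per list. Along the thick ascending limb score the level climbs from 719 to 8381 CPM and from 1047 to 9286 CPM, and along the neutrophil score it goes from 3146 to 3082 CPM and from 6198 to 2921 CPM.

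Spots were then ranked into 5 equal groups by a list's score. From the lowest to the highest group by the thick ascending limb score, Lcn2 went from 719 to 8381 CPM in Ischemic 1 and from 1047 to 9286 CPM in Ischemic 2. Along the neutrophil score it went from 3146 to 3082 CPM and from 6198 to 2921 CPM. Within each group by the neutrophil score, spots above the median of the thick ascending limb score held 2.44 to 7.88 times the Lcn2 of those below it in Ischemic 1, and 2.82 to 7.31 times in Ischemic 2. Within each group by the thick ascending limb score, spots above the median of the neutrophil score held 0.75 to 1.96 times the Lcn2 of those below it in Ischemic 1, and 0.54 to 1.08 times in Ischemic 2. The planned split used the injured tubule score, not that of the thick ascending limb. Within neutrophil groups it gave 0.86 to 3.05 times in Ischemic 1 and 1.11 to 2.17 times in Ischemic 2. Within injured tubule groups the neutrophil score gave 0.69 to 1.39 and 0.44 to 0.83 times. Slc12a1, Umod, Cldn10 and Ptger3 of the thick ascending limb list also define the inner stripe, so its split partly repeats the zones.

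Among the injury genes of the tubule, Lcn2 lay apart from Havcr1 (Kim-1), the other widely used marker of tubule injury, which is made by the proximal tubule. Havcr1 rose alongside it, from 0.966 and 2.13 CPM in the normal sections to 1408 and 1413 CPM in the ischemic ones (log2 fold change 9.64 ± 0.28 SE, edgeR adjusted p = 6.70e-08). The 2 genes lay in different places: Havcr1 was highest in the outer stripe, at 2370 and 2455 CPM, and stood at 272 and 304 CPM in the inner stripe, where Lcn2 was high. Their correlation across spots was -0.48 and -0.58, which put Havcr1 at rank 9803 of 10346 genes by likeness to Lcn2. Inside the outer stripe it was -0.56 and -0.66, inside the inner stripe -0.49 and -0.62, and of the 5 zones only the cortex had it above 0, at 0.26 and 0.15.

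**Figure D5:**
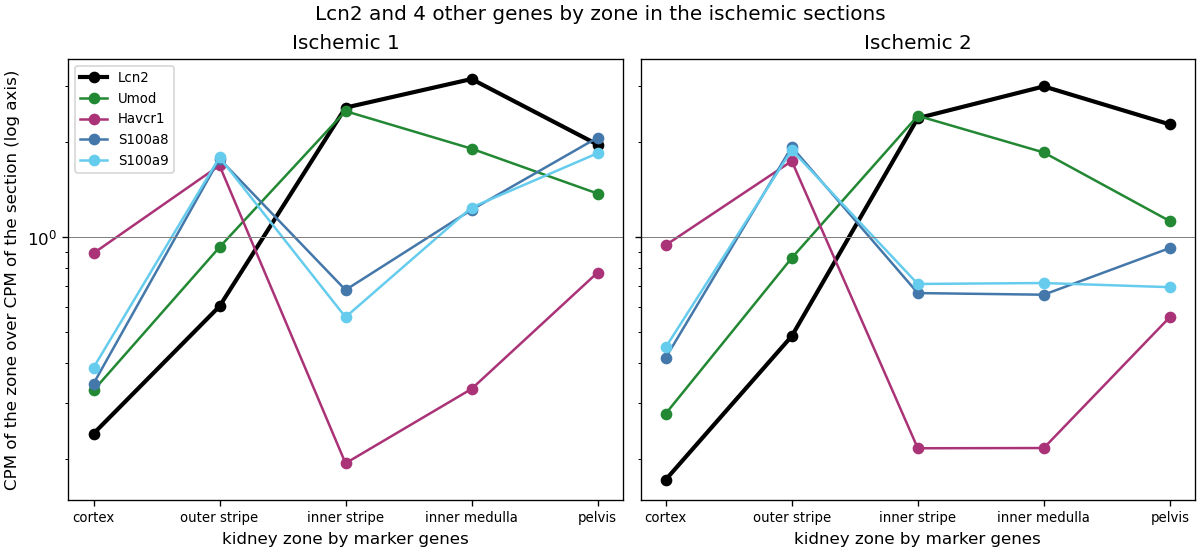
Level of Lcn2, Umod, Havcr1, S100a8 and S100a9 in each zone, as CPM of the zone over CPM of the whole section on a log axis, for Ischemic 1 and Ischemic 2. Lcn2 stands at 2.56 and 2.37 in the inner stripe with Umod close by, at 2.41 in Ischemic 2, while Havcr1 is highest in the outer stripe at 1.68 and 1.74 and lowest in the inner stripe of Ischemic 1 at 0.193.

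The injured tubule list as a whole held 2 patterns. Of its 10 genes 9 rose, beside 31.0% of all genes that rose, and Krt19 (log2 fold change 0.15, adjusted p = 0.668 by edgeR) did not pass. The median of the list was 3.08. Spp1, which encodes osteopontin, followed Lcn2 at 0.77 and 0.80, and Clu, the secreted chaperone clusterin, at 0.66 and 0.72. The keratin gene Krt18 gave 0.66 and 0.62. Krt20 (-0.13 and -0.22) and Sox9 (-0.10 and -0.16), which mark injured proximal tubules, stood on the other side with Havcr1. With 7 of its genes above 0 and 3 below 0 in both ischemic sections, the score of the list gave 0.45 and 0.41.

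The genes most like Lcn2 in both ischemic sections were chosen by their mean correlation, among 10346 genes found in at least 5% of spots of each. Cd24a, a surface glycoprotein of epithelia, came first (0.91 in both sections), and its level was 501 and 427 CPM in the cortex and 2784 and 2651 CPM in the inner stripe. The metallothioneins Mt1 (0.93 and 0.88) and Mt2 (0.91 and 0.88), which bind zinc and other metals, came next. Umod was the fourth. The rest of the first 10 were Pkm, Mrps6, Epcam, H3f3b, Defb1 and Slc5a3, at means of 0.87 to 0.84. Epcam is a general epithelial adhesion protein, Defb1 an antimicrobial defensin made by distal tubules, and Slc5a3 a myo-inositol transporter used against high osmolarity. Among the genes least like Lcn2 were Gpx3, Spink1, Dbi and Cltrn, at -0.91 to -0.88, and their levels were highest in the cortex, such as 20466 and 19206 CPM for Gpx3, the glutathione peroxidase that proximal tubules secrete. S100a8 and S100a9 ranked 5836 and 6390.

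In the normal sections, where 219 and 220 counts limit such a ranking, the 5 genes most like Lcn2 were Cxcl12, Cck, Cryab, Wnt7b and Gsn, at means of 0.48 to 0.46. Wnt7b is a collecting duct ligand and Cryab a small heat shock protein of the inner medulla. In the ischemic sections the same 5 genes gave 0.74, 0.73, 0.42, 0.76 and 0.54 in that order.

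Genes of the signals known to induce Lcn2, namely NF-kB, C/EBP and the STAT3 pathway of interleukin 6 type cytokines, mostly rose. Of 18 genes 16 rose, none fell and 2 did not pass (Il17ra and Il6ra), with a median log2 fold change of 1.14 by edgeR, beside 31.0% of all genes that rose. Socs3, the feedback inhibitor of STAT3 signalling, went from 1.06 and 2.93 CPM to 59.9 and 58.2 CPM (log2 fold change 4.73 ± 0.24 SE, adjusted p = 6.65e-07). Il6 had 0 counts in both normal sections and 71 and 78 in the ischemic ones. Nfkbiz, an NF-kB cofactor, went from 3.82 and 6.44 CPM to 26.2 and 25.9 CPM. Cebpd, a factor that binds the TTGCNNAA form marked above, went from 26.7 and 48.8 CPM to 119.8 and 119.9 CPM.

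Across the spots of the ischemic sections, 17 of the 18 had a correlation above 0 with Lcn2 in both. The exception was Cebpb (0.08 and -0.03). Correlations above 0 were common among all genes: S100a9, at rank 6390 of 10346 by likeness to Lcn2, still had a mean of 0.06. The share of all genes above 0 in both sections was not counted, so the count of 17 is not read as particular to these genes. Socs3 (0.74 and 0.72) and Cebpd (0.69 and 0.68) lay closest to Lcn2. Stat3 (0.49 and 0.48), the receptor chain Il6st (0.49 and 0.44) and the oncostatin M receptor Osmr (0.49 and 0.43) followed. The cytokines themselves were near 0 to weak, with Il6 at 0.22 and 0.11, Il1b at 0.16 and 0.04 and Tnf at 0.15 and 0.05, at 29 to 205 counts per section.

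Genes for uptake of lipocalin 2 went the other way. Slc22a17, a receptor for it, went from 17.6 and 19.6 CPM to 9.02 and 8.71 CPM (log2 fold change -1.34 ± 0.11 SE, edgeR adjusted p = 8.87e-06). Lrp2, or megalin, the endocytic receptor of proximal tubules, had 550 and 528 CPM against 137 and 128 CPM (-2.31 ± 0.16, adjusted p = 3.16e-06), and its partner Cubn fell by 2.20 on the log2 scale. Mmp9, whose protein forms a complex with lipocalin 2, rose by 2.45, and Mc4r, at no more than 4 counts in a section, was not tested. Lrp2 ran against Lcn2 across spots, at -0.87 and -0.84. Inside the outer stripe alone it did so at -0.75 and -0.76.

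Of 13 genes of siderophores and iron, 5 rose, 4 fell, 3 did not pass and Hamp was too low to test, with a median of 0.21, and the shares that rose and fell lie near the 31.0% and 29.7% of all genes. Hmox1, which frees iron from haem, had 16.6 and 13.7 CPM against 225 and 219.7 CPM (log2 fold change 3.58 ± 0.18 SE, edgeR adjusted p = 5.47e-07), Cp rose by 2.00 and the transferrin receptor Tfrc by 1.32. Bdh2, which makes a mammalian siderophore, fell by 2.48. Hmox1 (-0.69 and -0.65) and Bdh2 (-0.83 and -0.80) lay away from Lcn2 across spots.

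Other injury markers moved in both directions, with 7 of 15 tested genes higher, 6 lower and 2 not passing, and a median of -0.13, beside 31.0% of all genes higher and 29.7% lower. Umod fell by 0.51 (adjusted p = 0.0365 by edgeR), from 3058 and 3454 CPM to 2729 and 2802 CPM. Egf, the growth factor of the thick ascending limb and distal convoluted tubule, fell by 6.40, from 510 and 663 CPM to 8.21 and 8.44 CPM. Of 20 genes of the lipocalin family, 18 were listed and 7 tested. Rbp4, Ptgds, Apod, Orm1, C8g and Apom fell, Ambp did not pass (log2 fold change -0.49, adjusted p = 0.195), and the median was -1.59, so that none of the 7 shared the rise of Lcn2. The listed genes Lcn3, Lcn4, Lcn5, Lcn6, Lcn8, Lcn9, Lcn10 and Lcn12 held no more than 5 counts in any section.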

How the data were processed

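The authors ran Space Ranger (1.3.0 by the file headers, mm10 by the submitters' processing notes) and deposited UMI counts for each gene in each tissue spot, without normalization, and the spot positions. From these counts, 10312 spots of 4 sections were used, with conditions from the labels. Counts were summed per section, or per zone within a section (20 spots or more), and tested with edgeR 4.0.16 in R 4.3.3 (quasi-likelihood test after TMM scaling and filterByExpr, p adjusted over all genes tested by Benjamini-Hochberg, threshold 0.05). The SE is the log2 fold change divided by the root of F. Sections, not spots, were the replicates.

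Zones came from the highest marker score (mean log CPM over the spot with at most 6 neighbours, standardised within the section), and pelvis needed at least 10 counts of its list and the top 5% of the section. The lists were Slc5a2, Slc5a12, Slc34a1, Slc22a6, Slc22a8 and Slc12a3 (cortex), Slc7a13, Cyp7b1, Serpina1f, Slc22a13 and Atp11a (outer stripe), Slc12a1, Umod, Cldn10 and Ptger3 (inner stripe), Akr1b3, Aqp2, Cryab, Fxyd4 and Slc14a2 (inner medulla) and the urothelial genes (pelvis). Spot correlations used log2(CPM + 10), and a list's score was the mean over its genes. Named genes were Lcn2, the listed genes, the 10 most and 5 least like Lcn2 in the ischemic sections and the 5 most like it in the normal ones. Of these, 2 genes are not reported here. Lcn2 and the lists were chosen with earlier results of these data known.

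Alternatives were DESeq2 1.42.0, other scalings, no filter, other zone calls, a replicate block and leaving out each section. On simulated counts for the whole-section comparison (15077 genes, 200 changed 4-fold) edgeR recovered 192 with 6 false calls and DESeq2 186 with 5. For inner stripe against cortex (12437 genes) edgeR recovered 189 with 3 and DESeq2 176 with 5. Python 3.11.15 with scipy 1.17.1 gave the correlations and exact intervals.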

Additional observations from a re-analysis of the deposited data

Results flagged for a closer look

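The rise of Lcn2 in the pelvis was smaller than in the cortex by -1.59 on the log2 scale (SE 0.30, adjusted p = 0.00184 by edgeR's test of the interaction of zone and condition), which is a difference between conditions in the same contrast. The levels behind it were 45.7 and 42.1 CPM in Normal 1 and Normal 2 and 5986 and 8223 CPM in Ischemic 1 and Ischemic 2. The urothelium list that defines the pelvis fell in 5 of its 6 genes, beside 29.7% of all genes that fell. Inside spots called pelvis in the ischemic sections, Lcn2 followed the principal cell list at 0.83 and 0.90. The part of the zone call in this difference was not tested.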

How the results depend on the processing

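The whole-section rise ran from 8.74 to 9.05 over 7 alternatives and from 8.58 to 8.97 without 1 section, and the zone rises and the steps of each ischemic zone from the cortex, and of the inner from the outer stripe, kept direction and call under all of theirs. The comparisons of neighbours in the order of levels, chosen after seeing the data, did not: the inner medulla exceeded the inner stripe and passed with no filter (0.31), without boundary spots (0.46) and with a list lacking Cryab and Akr1b3 (0.57), and the inner stripe exceeded the pelvis and passed with no filter (0.24) and with zones from single spots (0.47). Without 1 ischemic section, in a fit with the normal ones, they were 0.32 to 0.33 and 0.13 to 0.34, and the steps were 1.38 to 1.56, 3.08 to 3.49, 3.40 to 3.81 and 2.74 to 3.36 from the cortex to the outer stripe, inner stripe, inner medulla and pelvis, and 1.70 to 1.93 from outer to inner stripe. Scaling by the library total alone moved the median of all genes from 0.04 to 0.31 and gave 9.05 for Lcn2. With a replicate block (sections of the same number as a pair, whose deviations correlated at 0.16, over 2 pairs) the rise was 8.78 with 10089 genes called against 9279, and the numbers are not known to mark a shared mouse. Without 1 section the count of called genes ran from 6493 to 10877.

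Without 1 section the rise ran from 8.52 to 9.13 in the cortex, 8.25 to 9.09 in the outer stripe, 8.39 to 8.54 in the inner stripe, 8.62 to 8.80 in the inner medulla and 7.07 to 7.45 in the pelvis, with the lone section assumed to vary like the others. The differences between conditions turned sign around 0: the outer stripe went from -0.09 to 0.27 with zones from single spots, and without 1 section ran from -0.32 to 0.045, the inner stripe from -0.61 to 0.027 and the inner medulla from -0.46 to 0.34. Without boundary spots the inner stripe difference went from -0.33 to -0.90 (adjusted p = 0.0705, edgeR). No call was made in any of these. The pelvis ran from -2.03 to -1.0 and lost its call without Normal 1 (-1.0) or Ischemic 1 (-1.27). Of these differences, those other than outer stripe against cortex were chosen after seeing the data.

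Over spots, the correlation with injured tubules minus that with neutrophils was 0.36 on average, 0.27 to 0.44 by section and 0.081 in the outer stripe alone. It was 0.62 with lists thinned to equal counts, a setting that also scored each list by its summed counts in place of the mean over genes. Spp1 alone held 1121790 of the 1336467 injured tubule counts of Ischemic 1, so the 0.62 does not show the effect of equal counts alone. For the thick ascending limb in place of injured tubules, added after seeing the data, the difference was 0.69 (0.59 to 0.80) and 0.022 in the outer stripe alone, where its sign turned between sections (-0.079 in Ischemic 1, 0.12 in Ischemic 2). The ratio of Lcn2 in spots without neutrophil counts to other spots was 1.61 (1.31 to 1.97) and 1.16 without S100a8 and S100a9 in the list. With spots thinned to 2000 UMIs it was 1.09 in Ischemic 1 and 1.64 in Ischemic 2. The cause of these shifts was not tested. Depth limits the normal zones, at 19 to 82 counts.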
